A study of Rattus norvegicus with 16 samples.

Results

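Brain was compared with the 5 other tissues of the six-tissue set of a rat small RNA series. The set holds 12 of the 16 libraries of the series, and the 2 brain libraries were set against the 10 libraries of liver, spleen, heart, testis and kidney. Whole tissues came from adult males of the inbred strains BN-Lx (the polydactyly-luxate brown Norway rat) and SHR (the spontaneously hypertensive rat), with no treatment in the labels. All 6 tissues of a strain came from 1 rat, so that each tissue has 1 library per strain and the strains serve as its replicates. The 2 libraries of a tissue thus come from rats that also differ in strain. A difference is measured against the spread between such libraries that remains once a strain difference common to the tissues is taken out. The question was which miRNA families are high or low in brain, which arm of the hairpin gives the miRNA, and where its ends lie.

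A miRNA is cut from a hairpin precursor first by Drosha in the nucleus and then by Dicer in the cytoplasm. This leaves a duplex of the 5′ arm (5p) and the 3′ arm (3p), of which usually the strand loaded into an Argonaute protein is kept. Bases 2 to 8 of the mature miRNA form the seed, which pairs with target mRNAs, so a cut at another base gives another seed. Brain is known for its own set of miRNAs, among them mir-124 and mir-128 of neurons, mir-9 of neural progenitors, neurons and glia, and mir-219 and mir-338 of myelinating oligodendrocytes.

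Reads that matched a hairpin perfectly were summed per arm, and 697 arms of 387 hairpins had reads. A library without testis held between 403453 and 1064894 reads, and the testis libraries held 26880 and 29131. Levels are given as reads per 1000000 miRNA reads of the library (RPM), so 1 read is worth far more in testis than elsewhere. Reads that fitted several hairpins had been divided evenly between them, so copies of a locus with the same mature sequence (mir-124-1, mir-124-2 and mir-124-3, for example) have near-equal values and are not separate observations. Testis and SHR liver were amplified with more PCR cycles than the other libraries, and with no molecular identifiers a read and its PCR copies count alike. In such bulk samples fewer cells of a type and less miRNA per cell cannot be told apart.

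The brain miRNAs that the results turn on have the following mature sequences. They are shown 5′ to 3′ from RefSeq on GRCr8, with the seed in capitals, because the seed groups the arms whose levels are compared. Copies with the same sequence are shown once.
mir-128-1-3p: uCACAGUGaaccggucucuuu
mir-138-1-5p: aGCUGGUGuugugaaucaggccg
mir-218-2-5p: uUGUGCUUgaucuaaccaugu
mir-9-3-5p: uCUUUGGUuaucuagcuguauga
mir-9-3-3p: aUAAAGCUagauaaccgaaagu
mir-29b-1-3p: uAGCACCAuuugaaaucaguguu
mir-92b-3p: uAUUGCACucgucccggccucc
mir-92a-1-3p: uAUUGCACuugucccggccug
mir-363-3p: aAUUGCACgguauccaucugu
mir-384-5p: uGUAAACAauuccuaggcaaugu
mir-30a-5p: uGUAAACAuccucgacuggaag
mir-17-1-5p: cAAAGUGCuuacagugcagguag
mir-20b-5p: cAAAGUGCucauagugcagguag

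The 4 marker hairpins of brain were high in both brain libraries, as their label says. The 3p arm of mir-128-1 had 29285 RPM in the BN-Lx brain and 30569 in the SHR brain, while the 10 other libraries had a lowest of 124.6, a median of 433 and a highest of 1322 RPM, in SHR testis. The lower brain library was thus 22.2 times the highest other library. mir-138-1-5p, a miRNA of dendrites and synapses, had 17285 and 15611 RPM in BN-Lx and SHR brain and between 82.5 and 1610 RPM elsewhere. The 3p arm of mir-124-1, the most abundant miRNA of neurons, had 7450 RPM in the BN-Lx brain and 21409 in the SHR brain, and from 4.07 to 1191 RPM in the remaining libraries. Both brain libraries lay above all others for these 3 arms, although the brains of the strains differed in mir-124-1-3p.

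mir-9-3 gave reads from both arms. Its 5p arm had 1103 RPM in BN-Lx and 531 in SHR brain against a highest other value of 86.8, and its 3p arm had 820 and 617 RPM against 12.4. The lesser arms of the other markers followed the same order. mir-124-1-5p had 1145 and 910 RPM in brain and at most 86.8 elsewhere, and mir-138-1-3p had 435 and 343 RPM and at most 32.5. mir-128-1-5p was too scarce for the test, with 16 and 17 reads in BN-Lx and SHR brain and 4 reads in the 10 other libraries together.

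Ranked per single hairpin, the most abundant arms of brain were abundant in the other tissues too. Reads of copies are divided between hairpins here, which lowers the rank of a miRNA with several copies. mir-128-1-3p and mir-128-2-3p, with the same sequence, had 29285 and 27105.5 RPM in the BN-Lx brain and at most 1322 and 1253 RPM outside brain. Together they would stand higher in this ranking. mir-29a-3p led both brain libraries with 110994 RPM in BN-Lx and 127769 in SHR, and it also had between 35129 and 62050 RPM in every other library. mir-29c-3p, second among arms of single hairpins by the mean of both brains, had 40751 and 49181 RPM and between 4815 and 24494 elsewhere. Both brain libraries thus lay above the 10 others for these arms of mir-29. mir-125a-5p had 43154 RPM in the BN-Lx brain and 25680 in the SHR brain, within the range of the other tissues (6740 to 44382). mir-24-1-3p and mir-24-2-3p, which share their reads, each had 32818 RPM in the BN-Lx brain, 32177 and 32179 in the SHR brain, and up to 70395 in SHR heart.

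Across all arms, brain was tested with edgeR against the mean of the 5 other tissues, with tissue and strain as terms and p-values adjusted by Benjamini-Hochberg over the 457 arms that passed the filter on low reads. Of these, 178 arms (38.9%) were higher in brain and 105 (23.0%) lower at an adjusted p of 0.05. For 8 arms with few or no reads in brain edgeR gave no usable statistic against the mean, and they count as not called. The median log2 fold change of all arms was 0.46 and not 0, so the middle tested arm lay slightly above 0 on this relative scale. That median was 0.82 with size factors of the RLE type, 0.94 with the outlier-corrected mean of the study (the mean over arms without the 3 most abundant) and 1.19 with total reads. Log2 fold changes below are to be read against it.

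A stricter call asked that an arm differ from each of the 5 tissues in the same direction. Brain-high arms numbered 82 (17.9%) and brain-low arms 29 (6.35%). The brain-high arms lie on 60 hairpins, with both arms called on 22 of them, and the brain-low arms on 24 hairpins, with both arms called on 5. As a description of the called arms, the brain-high arms held 28.5% of the reads of BN-Lx brain and 32.7% of SHR brain, but between 0.392% and 2.30% of the other libraries. The brain-low arms held 3.20% and 3.32% of the brain reads and between 13.1% and 42.7% elsewhere. In RPM, both brain libraries lay above the 10 others for 37.9% of the tested arms and below them for 6.78%. The filter on low reads worked by tissue, so an arm with reads in brain alone could pass. Such arms add to the former share and to those of higher and brain-high arms. Of the 82 brain-high arms, 42 had 0 reads in at least 1 other library. The number of brain-low arms depended on the choices made. It was 17 without SHR brain, 55 without both testis libraries and 14 with total reads as scaling.

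**Figure D1:**
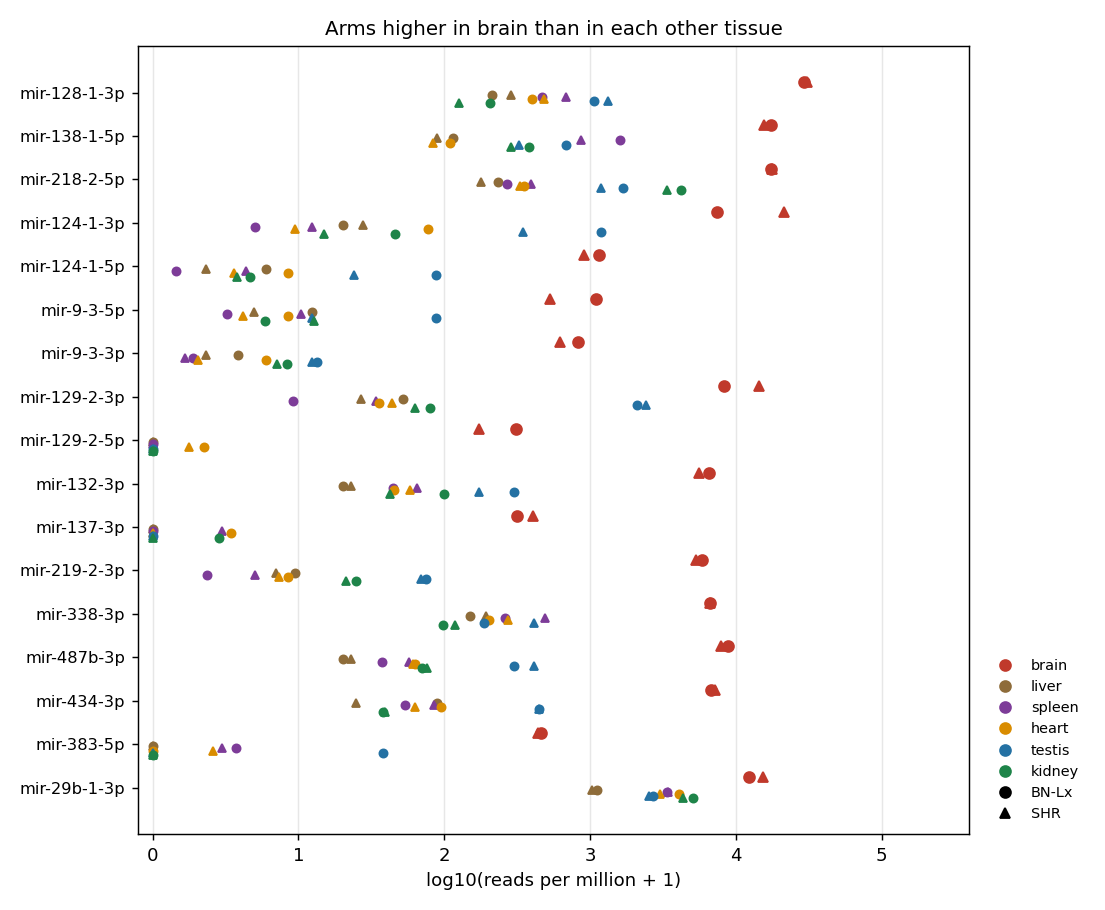
Level of 17 brain-high arms in the 12 libraries, on an axis of log10(RPM + 1), with circles for BN-Lx, triangles for SHR and a colour per tissue. The 2 red brain points lie to the right of all 10 other points for every arm, and for several arms the nearest other library is a shallow testis library.

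Neuronal miRNAs formed the first group. Of the 18 hairpins listed under this name, all 32 tested arms were higher in brain than the mean of the other tissues. Brain-high were 26 of them. Among all arms these shares were 38.9% and 17.9%. This list, like those below, was made from known biology with earlier results of these data known. The counts therefore describe its members and are no test of the list. Copies that share reads, such as those of mir-124 and mir-128, count separately here, so there are fewer separate miRNAs than arms. Their median log2 fold change was 6.73. Summed over the list, brain held 174395 RPM in BN-Lx and 216828 in SHR, and the other libraries had a lowest of 1159, a median of 3883 and a highest of 13690.

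Among them, mir-128-1-3p rose by 5.48 ± 0.26 on the log2 scale (SE, adjusted p = 8.81e-09 by edgeR) and mir-128-2-3p, with the same sequence, by 5.55 ± 0.25. mir-218-2-5p, a miRNA of motor neurons that is also made from the Slit genes of other tissues, had 17371 and 17774 RPM in the brains and reached 4217 in BN-Lx kidney, so its lowest brain value was 4.12 times the highest other value. Its copy mir-218-1-5p had 16775 and 17069 RPM. mir-138-2-5p had 13222 and 10993 RPM in brain and at most 939 elsewhere. The kidney of both strains was the tissue closest to brain for mir-218, and spleen for mir-138.

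mir-124-1-3p rose by 7.93 ± 0.62 (adjusted p = 2.31e-07 by edgeR), and mir-124-2-3p and mir-124-3-3p, which share its reads, by the same 7.93. The strain difference in its brain level was not called (adjusted p = 0.877 by edgeR in the fit with a brain by strain term). mir-129-2-3p had 8318 RPM in BN-Lx and 14469 in SHR brain, with 2420 in SHR testis as the highest other value and a median of 47.0. Its other arm, mir-129-2-5p, had 329.5 and 149 reads in BN-Lx and SHR brain, where a fraction comes from a divided read, and 1 read in all 10 other libraries together. mir-137-3p, a regulator of neuronal maturation, had 335 and 349 reads in BN-Lx and SHR brain and 3 reads elsewhere. The folds of arms at or near 0 outside brain depend on the constant that the fit adds, and their reads are the firmer measure.

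mir-132-3p, a miRNA induced by neuronal activity, had 6560 and 5568 RPM in the brains and between 19.2 and 298 elsewhere. It was named for its place among the brain-high arms after its values were seen, as was mir-153-3p with 176 and 198 RPM in brain and at most 2.48 elsewhere.

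Oligodendrocyte miRNAs were high as well. All 5 tested arms of the list were higher in brain than the mean and 4 were brain-high, against 38.9% and 17.9% of all arms. Their median log2 fold change was 5.02. mir-219-2-3p rose by 8.21 ± 0.34 (adjusted p = 6.33e-09 by edgeR), from 5892 and 5316 RPM in BN-Lx and SHR brain to at most 74.4 in the others, 2 reads of BN-Lx testis. The lower brain library was 71.4 times that value. mir-338-3p had 6630 RPM in the BN-Lx brain and 6624 in the SHR brain and between 97.4 and 489 elsewhere. The fifth arm, mir-219-1-5p, rose against the mean by 3.38 ± 0.83 but not against each tissue.

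The large imprinted Dlk1-Meg3 cluster gave the most brain-high arms. In RefSeq, 38 of its listed hairpins lie at chr6:134298084-134579838 (GRCr8, plus strand), a stretch of 282 kb. The list held 46 hairpins with 64 tested arms. Of these, 63 were higher in brain than the mean and 35 were brain-high, against 38.9% and 17.9% of all arms. The remaining arm, mir-411-5p, was not called (adjusted p = 0.483 by edgeR). The median was 5.73, and the summed level was 53020 RPM in the BN-Lx brain and 49429 in the SHR brain against a lowest of 283, a median of 820 and a highest of 5458 elsewhere.

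Within the cluster mir-487b-3p was the most abundant, with 8851 and 7933 RPM in the brains and at most 412, in SHR testis. It rose by 6.25 ± 0.29 (adjusted p = 8.81e-09 by edgeR). mir-434-3p had 6699 and 7236 RPM and at most 446, in BN-Lx testis. Its partner arm mir-434-5p was brain-high too, with 2038 and 1935 RPM. Of the 64 arms, 28 were higher than the mean of the other tissues but not than each of them, and the shallow testis libraries gave the highest other value for both arms just named.

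The hairpins in an intron of Htr2c, the gene of a serotonin receptor, had 4 tested arms. All were higher than the mean and none was brain-high, against 38.9% and 17.9% of all arms. Together they had 218 and 249 RPM in BN-Lx and SHR brain and at most 2.48 in any other library. mmu-mir-764-5p had 76.1 and 96.5 RPM in brain and at most 1.84 elsewhere. Of the 4 names listed here, 2 were matched in the files, and the 4 names of the mir-344 family were not matched. One hairpin of a related name, mir-344-1, had a brain-high 3p arm with 250 and 302 RPM in brain and at most 3.97 elsewhere.

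Outside these lists 17 arms were brain-high. They were described after their values were seen, except for mir-29b and mir-383-5p. mir-29b-1-3p and mir-29b-2-3p rose by 1.66 ± 0.26 and 1.64 ± 0.26, the former from 12382 and 15317 RPM in brain to between 1027 and 5074 elsewhere. mir-383-5p had 491 and 377 reads in the brains and 5 reads in the others together. mir-135a-5p had 5094 and 5838 RPM and at most 521, mir-598-3p 3450 and 2431 and at most 275, and mir-551b-3p 2056 and 3118 and at most 37.2. Both arms of mir-384 and of hsa-mir-582 were brain-high, and the remainder were mir-330-3p, mir-92b-3p, mir-346-5p, mir-325-5p, mir-708-5p, mir-344-1-3p and mir-873-5p.

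**Figure D2:**
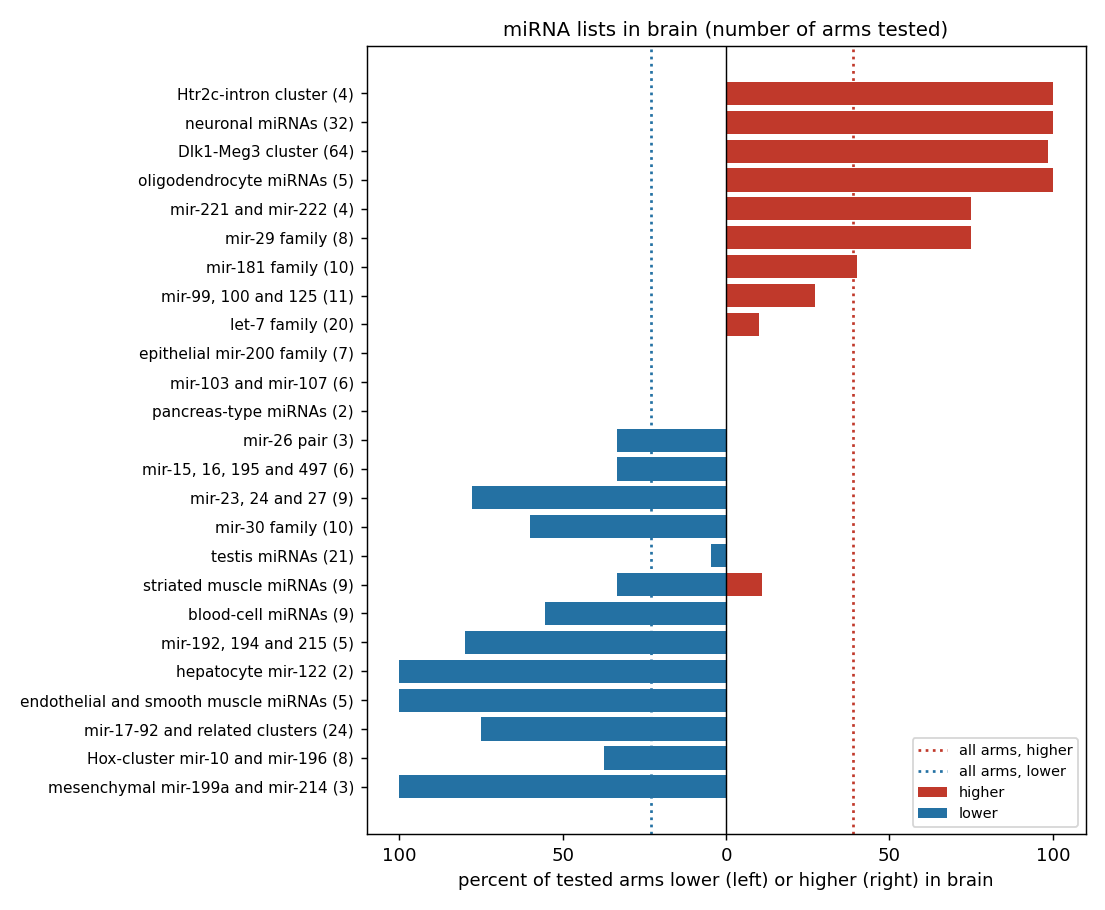
Percent of the tested arms of each list that were higher (red, right) or lower (blue, left) in brain than the mean of the 5 other tissues, ordered by the median log2 fold change, with the number of tested arms in brackets. Dotted lines mark the 38.9% higher and 23.0% lower among all 457 arms, which the neuronal, oligodendrocyte, Dlk1-Meg3 and Htr2c lists pass on the right by the widest margin.

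The brain-low arms came from another set of families. The clusters mir-17-92, mir-106a-363 and mir-106b-25, known for their part in cell proliferation, had 24 tested arms, of which 18 were lower in brain than the mean, none was higher and 12 were brain-low, against 23.0% lower and 6.35% brain-low among all arms. The median was -2.76. Copies with the same mature sequence, such as mir-19b-1-3p and mir-19b-2-3p, count separately here, so there are fewer separate miRNAs than arms. Summed over these clusters, brain held 5842 RPM in BN-Lx and 5855 in SHR, and the other libraries between 10809 and 67672. The hairpins placed in RefSeq lie in 3 stretches, chr15:98587848-98588632 (plus strand), chrX:137342777-137343647 (minus strand) and chr12:22156641-22156930 (minus strand) on GRCr8.

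mir-19b-1-3p had 1349 RPM in the BN-Lx brain and 1057 in the SHR brain against a lowest of 2275, a median of 7007 and a highest of 16416 RPM, in SHR spleen, and its copy mir-19b-2-3p had nearly the same values. mir-92a-1-3p fell by 3.54 ± 0.56 on the log2 scale, with 191 and 578 RPM in the brains and between 969 and 7655 elsewhere. mir-92a-2-3p had 29.6 and 62.2 RPM against at least 118. mir-92a-1-5p had 6.57 and 5.81 RPM against between 9.91 and 372. For all of these both brain libraries lay below the 10 others.

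The arms with the fewest reads were less clear in the single libraries. mir-20b-5p had 2 and 9 reads in the brains (1.88 and 10.5 RPM) and between 20.1 and 819 RPM elsewhere, the highest in SHR spleen. mir-363-3p had 12 reads in the BN-Lx brain and 0 in the SHR brain, and between 8.55 and 485 RPM in the others, so BN-Lx brain with 11.3 RPM did not lie below all of them. mir-224-5p had 1 and 3 reads in the brains (0.939 and 3.49 RPM) and between 7.98 and 275 RPM elsewhere.

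Vascular and mesenchymal miRNAs were low in brain. The list for endothelium and smooth muscle (mir-126, mir-143 and mir-145) had 5 tested arms. All were lower than the mean and 3 were brain-low, against 23.0% and 6.35% of all arms. mir-145-5p, a miRNA of smooth muscle, had 19426 and 23844 RPM in BN-Lx and SHR brain and between 37316 and 185628 elsewhere, the highest in BN-Lx heart, and it fell by 2.69 ± 0.25. mir-126-3p of endothelium was lower than the mean by a log2 value of -1.82 ± 0.30 but not lower than each tissue, with 3405 and 4128 RPM in brain and between 1414 and 20600 elsewhere.

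All 3 tested arms of mir-199a and mir-214, which are made together in mesenchymal cells, were brain-low, against 6.35% of all arms. mir-199a-5p fell by 5.67 ± 0.56, with 186 RPM in the BN-Lx brain and 51.1 in the SHR brain against a lowest of 1015, a median of 4243 and a highest of 6917. mir-214-3p had 12.2 and 12.8 RPM in the brains and between 85.8 and 352 elsewhere. mir-199a-3p had 294 and 352 RPM in brain, and SHR liver with 91.8 RPM lay below both, although the others lay at 1690 or more.

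Blood cell miRNAs were present in brain at a low level. Of 9 tested arms of mir-451, mir-144, mir-223, mir-142 and mir-150, 5 were lower than the mean, none was higher and 1 was brain-low. Among all arms 23.0% were lower and 6.35% brain-low, so 1 brain-low arm of so few is no result about the list. That arm, mir-223-3p of granulocytes and monocytes, had 932 and 1130 RPM in BN-Lx and SHR brain. Elsewhere it had between 2938 and 131187, the highest in SHR spleen. mir-150-5p of lymphocytes had 6822 and 6987 RPM in brain, within the range of the others (2746 to 82827). Summed, the blood list had 9894 and 12264 RPM in brain and from 7769 to 276106 in the remaining libraries, with SHR kidney below both brains.

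mir-10b-5p, which lies in a Hox gene cluster and marks the trunk, had 10.3 and 6.97 RPM in brain and between 11.97 and 3891 elsewhere. Its relative mir-10a-5p had 9.39 and 5.81 RPM in brain and up to 4692 in SHR kidney, and it was lower than the mean but not called against each tissue. Of the 8 tested arms of mir-10 and mir-196, 3 were lower than the mean, and for 2 others (mir-10a-3p and mir-10b-3p) edgeR gave no usable statistic. Beside the 23.0% lower among all arms, 3 of so few is no result about the list. The remaining brain-low arms among those with the largest falls were mir-21-5p, described with the strains below, and mir-339-3p with 6.57 and 3.49 RPM against between 27.9 and 74.4. mir-15b-5p was brain-low with 752 and 732 RPM against between 1224 and 11784, and 2 of the 6 tested arms of its list (mir-15, mir-16, mir-195 and mir-497) were lower, again near the share of all arms.

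**Figure D3:**
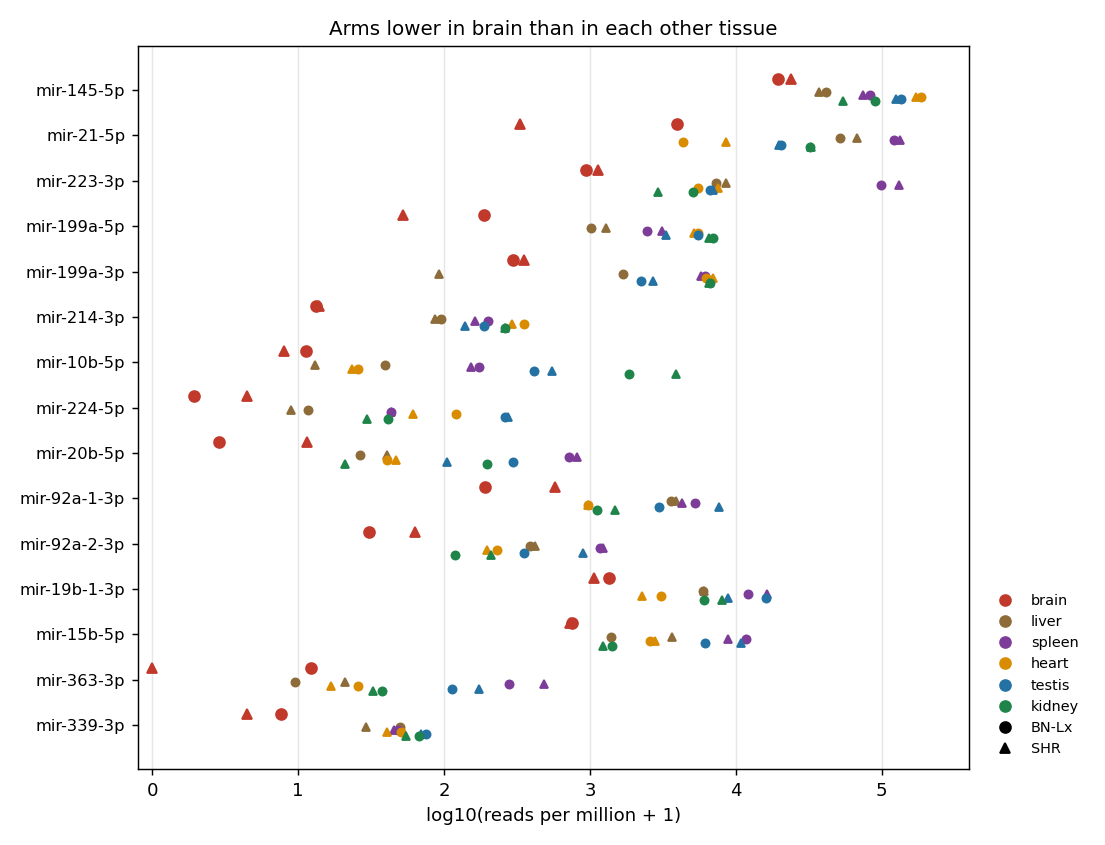
Level of 15 brain-low arms in the 12 libraries on an axis of log10(RPM + 1), drawn as for the brain-high arms. The red brain points lie to the left of the other tissues, except that SHR liver lies left of brain for mir-199a-3p and BN-Lx liver lies left of BN-Lx brain for mir-363-3p.

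Markers of liver, kidney, heart and testis were far below the level of their own organ in brain. mir-122-5p of hepatocytes had 220 and 188 RPM in BN-Lx and SHR brain, up to 322392 RPM in SHR liver, and as little as 71.9 in another library. mir-1-3p of heart and skeletal muscle had 10.3 and 2.32 RPM in brain and 26633 in SHR heart. mir-192-5p of liver and kidney had 2198 and 1392 RPM in brain and between 1015 and 145650 elsewhere. mir-375-3p had 5.63 and 13.9 RPM in brain, hsa-mir-202-5p of testis 8.45 and 4.65, and mir-742-3p of testis 1.88 and 9.30. Summed, however, the testis list had 1267 and 2079 RPM in BN-Lx and SHR brain, above liver, spleen and heart (102.5 to 599.6 RPM) and SHR kidney (244), with 2821 in BN-Lx kidney and at least 149182 in testis. Against the mean, 2 of 2 tested arms of mir-122, 4 of 5 of mir-192, mir-194 and mir-215, 3 of 9 of striated muscle, 1 of 21 of testis (mir-449a-5p) and 0 of 2 of the pancreas list were lower, beside 23.0% of all arms, so the testis list lay below that share and the muscle list near it. In the muscle list 2 of the uncalled arms, mir-1-5p and mir-208-5p, had no usable statistic. One muscle arm, mir-206-3p, was higher by 2.49 ± 0.99 (adjusted p = 0.0466 by edgeR), but that call was lost in 10 of the 12 fits that left out 1 library, for example without BN-Lx brain (adjusted p = 0.28).

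Broadly expressed families were split. Of the 8 tested arms of mir-29, 6 were higher and none lower, and mir-29a-3p rose by 0.77 ± 0.23, which is 0.31 above the median of all arms. Without both testis libraries that rise was 0.46 and no longer called (adjusted p = 0.16 by edgeR), and without SHR brain it was 0.51 (adjusted p = 0.22). Of the 4 arms of mir-221 and mir-222, 3 were higher, led by mir-222-3p with 857 and 945 RPM in brain and between 7.98 and 744 elsewhere. Of 10 arms of mir-181, 4 were higher, a share near the 38.9% of all arms, and mir-181a-1-5p had 1906 and 1312 RPM in brain and at most 903 elsewhere. Of 20 arms of let-7 only let-7e-5p and mir-98-5p were higher, well under that share.

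In the other direction, 6 of 10 arms of mir-30 and 7 of 9 of mir-23, mir-24 and mir-27 were lower. Among all arms 23.0% were lower. Summed in RPM, however, mir-23, mir-24 and mir-27 had 91403 and 88761 in the brains, near the median of 88628 elsewhere (53200 to 226293). With total reads as scaling their median log2 fold change was -0.14 instead of -0.83, while that of all arms was 1.19 instead of 0.46. For mir-30 the sum was 43118 and 34352 RPM in the brains, with a median of 55118 elsewhere (35250 to 165831). mir-30a-5p fell by 1.75 ± 0.39 on the log2 scale and mir-30c-2-5p by 1.20 ± 0.25. mir-24-1-3p was lower by a log2 value of -0.60 ± 0.20, but it was -0.23 and not called with RLE size factors, and with total reads as scaling its value was 0.08. Of the mir-26 pair, mir-26b-5p was the 1 of 3 tested arms that was lower. Of the 6 tested arms of mir-103 and mir-107 none passed the test. Of the 11 of mir-99, mir-100 and mir-125, 3 were higher (mir-125b-1-5p, mir-125b-2-3p and mir-125b-2-5p), a share under the 38.9% of all arms.

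Some arms with a shared seed went in the same direction, and those of 2 seeds did not. Of the 82 brain-high arms 63 could be placed on a mature sequence of RefSeq, with 54 seeds, and of the 29 brain-low arms 24, with 17 seeds. Among placed arms 13 seeds with a called arm were held by more than 1 tested arm. In 11 of these all log2 fold changes had the same sign, many of them between copies that share reads, and in 2 they did not. The seed AUUGCAC was held by 6 placed arms. mir-92b-3p was brain-high, with 364 and 618 RPM in BN-Lx and SHR brain and at most 34.3 elsewhere, and rose by 5.44 ± 0.47. mir-92a-1-3p, mir-92a-2-3p and mir-363-3p were brain-low, and mir-25-3p and mir-32-5p were lower than the mean by log2 values of -2.36 ± 0.47 and -2.33 ± 0.78. The mature forms of mir-92b-3p and mir-92a-1-3p printed above differ only past the seed.

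The other split seed was GUAAACA. mir-384-5p was brain-high with 4189 and 2546 RPM in the brains and at most 37.2 elsewhere, whereas the 4 other placed arms with the seed, all of mir-30, were lower than the mean with log2 values between -1.75 and -1.20. mir-30b-5p and mir-30d-5p, of the same family but without a sequence here, were lower as well, with -1.80 ± 0.28 and -1.21 ± 0.31. In level, mir-30a-5p still had 6763 and 4686 RPM in the brains. The seed AAAGUGC was held by 5 placed arms, of which mir-17-1-5p, mir-17-2-5p, mir-20a-5p and mir-20b-5p were brain-low and mir-93-5p was lower than the mean. mir-106b-5p, which has this seed but could not be placed for want of a hairpin entry, was not called (-0.93 ± 0.52). For AGCACCA, all 4 arms of mir-29 were higher than the mean. The comparisons of arms by seed were chosen after the calls were known.

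**Figure D4:**
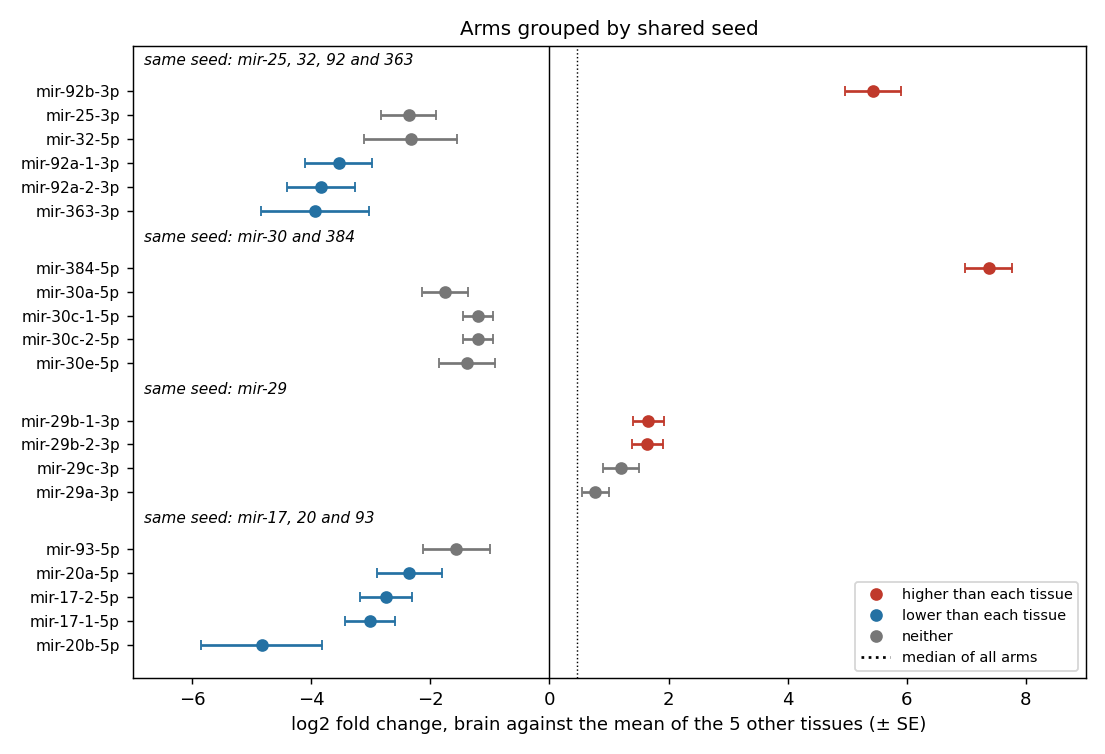
Log2 fold change of brain against the mean of the 5 other tissues, with its SE, for placed arms grouped by shared seed and coloured by their call. mir-92b-3p at 5.44 and mir-384-5p at 7.37 stand to the right of arms with the same seed that lie below 0, and the dotted line is the median of all arms at 0.46.

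The arm that gave most reads was mostly fixed within brain. Among 57 hairpins with a brain-high arm and reads on both arms, the 5p arm led in both brain libraries in 17, the 3p arm in 37, and the leading arm differed between the strains in 3. The lesser arm had under 10% of the reads in both brains in 29 hairpins. The share of the 5p arm differed between the strains by a median of 2.06 percentage points. Copies that share reads, such as those of mir-124, count as separate hairpins in these tallies and in the median. For mir-124-1 it was 13.3% in the BN-Lx brain and 4.08% in the SHR brain, so the 3p arm was 6.51 and 23.5 times the 5p arm. For mir-9-3 the 5p share was 57.3% in BN-Lx and 46.3% in SHR brain, but for mir-9-1, with the same 5p sequence, it was 38.8% and 30.0%. These copies had near-equal 5p reads, while mir-9-3 had fewer 3p reads. The share of a single copy thus depends on how reads were divided between copies. The same holds for mir-129-1, which like mir-9-3 was among the 3 hairpins whose leading arm differed. For mir-218-1 the 5p share was over 99.9% in both brains.

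Whether brain uses another arm than the other tissues was tested by limma on the log2 ratio of 5p to 3p reads, over 119 hairpins with at least 20 reads in each of 10 libraries (testis left out). Of these 3 (2.52%) differed, mir-218-1 upwards and mir-328 and mir-664-1 downwards. In all 3 the lesser arm was near 0, so the ratio moves with the depth of the hairpin in each library. mir-328 had 0 reads on its 5p arm in both brains and 1 read in the 8 other libraries together, and 2146 and 6304 reads on its 3p arm in brain. With at least 5 reads on the lesser arm in every library, a setting added after seeing the data, 43 hairpins were left and 0 were called by limma (smallest adjusted p = 0.226), with 4 at an unadjusted p under 0.05. Among these 43, mir-24-2 had a 5p share of 1.94% and 2.07% in the brains and between 3.51% and 6.27% elsewhere, and mir-140 had 10.2% and 11.5% against between 2.75% and 8.16%. Neither passed the test, though their groups did not overlap, as was so with brain above in 7.56% and brain below in 5.04% of the 119 hairpins.

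The 5′ start was tested as the log2 ratio of reads at the main start to reads at other starts, over 135 arms. By limma 0 arms (0%) were called at an adjusted p of 0.05, with a smallest adjusted p of 0.0877 and 20 arms at an unadjusted p under 0.05. With at least 5 reads at the main and at other starts in every library, 62 arms were left and 9 (14.5%) were called, 7 with more of the main start in brain and 2 with less. That setting was added after seeing the data. The differences were of a few percentage points in well-covered arms. mir-24-2-3p started at its main position in 97.86% and 97.99% of brain reads and in between 95.6% and 96.8% elsewhere.

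Larger shifts were seen in 4 further arms. hsa-mir-582-3p began at its main start in 76.0% and 72.0% of brain reads and in between 51.9% and 65.5% of the others, a log2 difference of 0.89 ± 0.16 (adjusted p = 0.00983 by limma in that setting). mir-455-3p had 80.1% and 79.6% against between 62.9% and 76.1%. mir-505-3p went the other way with 37.9% and 38.3% against between 40.2% and 64.7%, and so did mir-345-5p with 40.6% and 37.3%, though SHR heart with 36.7% lay below both brains. mir-101a-3p, mir-19b-1-3p and mir-19b-2-3p were the remaining calls, beside mir-24-1-3p. Both brain libraries lay above the 8 others in 6.67% of the 135 arms and below them in 2.96%.

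The starts of the brain-high arms themselves were sharp. The most-read start took a median of 94.1% of an arm's reads in the BN-Lx brain and 95.0% in the SHR brain, and over 90% in both for 49 of 82 arms. In 13 arms it took under 70% in at least 1 brain. mir-127-5p was split, with 48.6% and 55.4% of reads at position 23 and 47.9% and 42.2% at position 25 of the hairpin. mir-137-3p began at position 59 in 48.1% and 46.7% and at position 61 in 40.0% and 42.1%. These splits were alike in both strains and were picked out after the values were seen.

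Of the 63 brain-high arms with a RefSeq mature sequence, 52 began most often at the annotated base in both brains and 10 began elsewhere in both, 8 of them later and 2 earlier. In 9 of the 10 the other arm of the hairpin began where RefSeq has it. The annotated form and the form that most brain reads began with are shown for 4 of them, cut at the annotated 3′ end. They are shown because the shift changes the 7 bases of the seed, in capitals. The label brain says only where the reads were counted. None of these 4 arms was among those in the test of starts above, so whether their starts differ from those in other tissues was not tested.
mir-9-3-3p, annotated: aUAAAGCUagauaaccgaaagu
mir-9-3-3p, brain: uAAAGCUAgauaaccgaaagu
mir-551b-3p, annotated: gGCGACCCauacuugguuucagu
mir-551b-3p, brain: gCGACCCAuacuugguuucagu
mir-323-3p, annotated: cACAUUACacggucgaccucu
mir-323-3p, brain: gCACAUUAcacggucgaccucu
mir-138-1-3p, annotated: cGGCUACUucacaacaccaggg
mir-138-1-3p, brain: gCUACUUCacaacaccaggg

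The later start of mir-9-3-3p took 62.8% of reads in the BN-Lx brain and 57.5% in the SHR brain, and the annotated start 30.4% and 36.9%. For mir-9-1-3p the later start took 80.6% and 76.6%. In mir-551b-3p 99.6% and 99.5% of reads began 1 base after the annotated start, which had none. In mir-323-3p 61.5% and 62.2% began 1 base before it, and in mir-138-1-3p 90.3% and 90.8% began 2 bases after it.

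At the 3′ end 134 arms were compared by their mean end position among reads with the main start. By limma 0 arms (0%) were called at an adjusted p of 0.05, with a smallest adjusted p of 0.0706 and 26 arms at an unadjusted p under 0.05. The smallest belonged to mir-218-1-5p, whose reads ended on average at position 45.1 in both brains and between 45.2 and 45.6 in the 8 others, a difference of -0.30 ± 0.04 nt. Both brain libraries ended before the 8 others in 6.72% of arms and after them in 2.24%.

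The brains of the strains differed beyond the other tissues in 5 arms. In an edgeR fit with a brain by strain term, 5 of 457 arms (1.09%) passed an adjusted p of 0.05, and all 5 were lower in SHR brain than in BN-Lx brain relative to the strain difference of the other tissues. mir-21-5p, an abundant miRNA of most other tissues, had 3937 RPM in the BN-Lx brain and 331 in the SHR brain, against between 4343 and 133434 elsewhere. The epithelial arms mir-200a-3p and mir-200b-3p had 1438 and 427 RPM in the BN-Lx brain and 40.7 and 4.65 in the SHR brain. mir-182-3p had 676 RPM in the BN-Lx brain and 31.4 in the SHR brain, and mir-429-5p 105.2 and 0. The hairpins of mir-182 and mir-429 gave reads at 1 place only, so the names of these arms follow that place and are uncertain. Of the mir-200 family 7 arms were tested and 0 were called against the mean of the other tissues in the fit over both strains by edgeR, and the summed level of that list was 2092 RPM in the BN-Lx brain and 47.6 in the SHR brain, with between 76.8 and 32237 in the other libraries. With 1 brain per strain, a difference between strains and a difference between 2 dissections cannot be told apart.

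**Figure D5:**
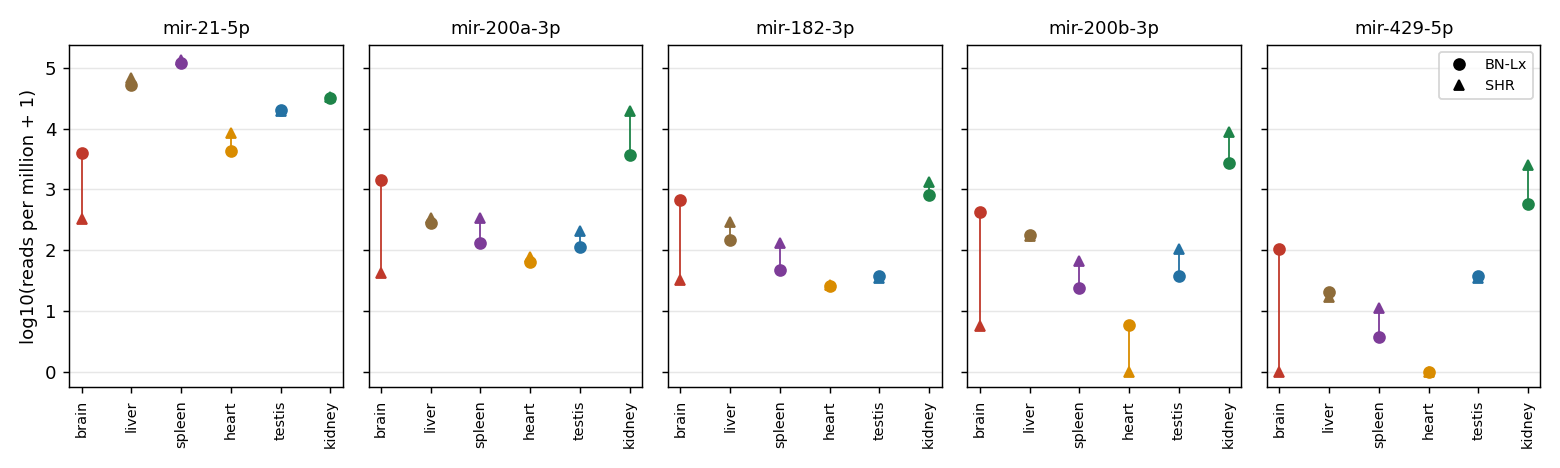
Level, as log10(RPM + 1), of the 5 arms whose brain level differed between the strains, in each tissue, with a circle for BN-Lx and a triangle for SHR joined by a line. The SHR brain point lies far below the BN-Lx brain point in all 5, while the kidney points of mir-200a-3p, mir-200b-3p, mir-182-3p and mir-429-5p lie the other way round.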

How the data were processed

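Small RNA of whole tissues was sequenced on the SOLiD platform. For each library the authors deposited estimated counts, without normalization: reads for every pair of first and last base along a hairpin, with a read of several hairpins shared out in equal parts. They had trimmed the linker, aligned reads with SHRiMP to miRBase hairpins and to those annotated in RGSC3.4, and kept perfect matches, which are 17 to 26 nt long here. The 4 further livers and the piRNA clusters were not used here.

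Reads were assigned to the arms by their midpoints, which lie at least 22 nt apart. Of 387 hairpins 310 had both arms, 60 with reads at 1 place were assigned by the RefSeq hairpin length, which leaves their arm names less certain, and 17 (471 reads) were left unassigned. Names were matched to RefSeq for 351 hairpins. Arm reads were rounded to whole numbers and tested in edgeR 4.0.16 (quasi-likelihood, TMM, filterByExpr, two-sided, Benjamini-Hochberg at 0.05) with tissue and strain as terms. Brain-high and brain-low ask for an adjusted p under 0.05 against each of the 5 tissues. Arm choice and 5′ start (log2 ratios with 0.5 read added) and mean 3′ end were tested in limma 3.58.1 over the 10 libraries without testis, for features with at least 20 reads in each. Libraries held between 403453 and 1064894 reads, but testis only 26880 and 29131, so 1 testis read is a large step in RPM and comparisons with testis are the least precise. The scripts were tested on simulated data.

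The strain marks the rat, since all tissues of a strain came from 1 rat, and it is the block of the fits. Deviations of tissues of the same strain were correlated across arms between -0.238 and 0.0971.

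Named are the arms of the 4 marker hairpins, the 5 most abundant arms of brain, the 12 most abundant brain-high arms, the 8 with the largest rise (at least 20 reads in each brain), up to 12 brain-low arms with the largest fall, the 2 most abundant arms of each list and up to 5 called arms per direction for arm choice and ends. Members, lists and tests were chosen with earlier results of these data known. Alternatives were DESeq2 1.42.0, scalings, filters, blocks, minimum reads, pseudocounts, thinning and libraries left out. Software was R 4.3.3, Python 3.11.15, pandas 2.3.3 and numpy 2.4.6.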

Additional observations from a re-analysis of the deposited data

Results flagged for a closer look

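Of 457 arms, 5 had a brain difference that itself differed between the strains, by a test of that difference in edgeR (adjusted p under 0.05). The value is the log2 difference of brain against the other tissues in SHR minus that in BN-Lx. It was -3.697 for mir-21-5p (adjusted p = 0.0028 by edgeR), -6.03 for mir-200a-3p (adjusted p = 0.0148), -9.323 for mir-429-5p (adjusted p = 0.0219), -5.023 for mir-182-3p (adjusted p = 0.0219) and -7.055 for mir-200b-3p (adjusted p = 0.0291). In reads, BN-Lx brain and SHR brain held 4193 and 285 of mir-21-5p, 1531 and 35 of mir-200a-3p, 112 and 0 of mir-429-5p, 720 and 27 of mir-182-3p, and 455 and 4 of mir-200b-3p. The size for mir-429-5p, with 0 reads in SHR brain, depends on the constant the fit adds. The next arm, mir-141-3p, which belongs to the mir-200 family as well, had -7.59 and was not called (adjusted p = 0.118). In kidney SHR held more than BN-Lx of mir-200a-3p (11844 against 2040 reads), mir-200b-3p (5211 against 1485), mir-429-5p (1488 against 308) and mir-182-3p (806 against 433). The term compares 1 brain of each strain, and the spread comes from the other tissues.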

How the results depend on the processing

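Of 178 arms higher and 105 lower, thinning every library to the shallowest left 95.5 and 46 (medians of 20 draws, about 248.5 arms tested), and 34 were lower when the 10 other libraries were fitted as 1 group. Of brain-high arms there were 82, against 65 after thinning and 116 without both testis libraries. The study's 5-fold rule gave 131, of which 65 were among the 82 and 30 had not been tested. The 29 brain-low arms became 19 with the outlier-corrected mean, 14 with total reads, 55 without both testis libraries, 17 with paralogous hairpins summed, 12 after thinning and 3 by the 5-fold rule. With 1 library left out, between 146 and 185 arms were higher, 72 to 108 lower, 55 to 81 brain-high and 17 to 29 brain-low, and the 17 came without SHR brain.

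For arm choice, the 3 calls became 7 with a pseudocount of 1, 1 with paralogous hairpins summed and 0 with at least 5 reads on the lesser arm, and between 0 and 4 with 1 library left out (0 without SHR brain, 1 without BN-Lx brain or SHR spleen). For the 5′ start, where 0 arms were called, there were 2 with at least 50 reads, 2 with 1 group of other libraries, 2 with testis added, 1 with a pseudocount of 1 and 9 with at least 5 reads at other starts. For the 3′ end, also with 0 calls, there were 5 with at least 50 reads, 3 with testis added, 3 for the log2 odds of the main end, and from 0 to 1 with 1 library left out. The settings with 5 reads on the lesser side, and the summed hairpins for arms and ends, were chosen after seeing the data. The cause of these changes was not tested.

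Without the replicate block, that is without strain as a term, 179 arms were higher, 105 lower, 96 brain-high and 29 brain-low, arm choice kept a count of 3, the 5′ start had 0 and the 3′ end 1.

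Of 1487 values of the 68 named arms with a call, 1405 kept it, 80 lost it with the same sign (27 of them with 1 group of other libraries) and 2 changed sign, which were mir-24-1-3p and mir-24-2-3p at 0.08 with total reads. The uncalled mir-411-5p lay between -0.84 (without BN-Lx brain) and 1.92 with 1 library left out.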
